A study of Homo sapiens with 4 samples.

Results

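The SLC16 genes encode the monocarboxylate transporters (MCTs), and 9 SLC16 genes were examined: SLC16A1, SLC16A3, SLC16A4, SLC16A5, SLC16A6, SLC16A7, SLC16A9, SLC16A10 and SLC16A13. They were chosen by gene name or RefSeq transcript, out of 30970 gene or transcript names on the array, and are measured by 11 probes, 2 each for SLC16A6 and SLC16A7 and 1 for each of the others. These 9 were picked with results of the same comparison known, so their values are given as a description without p-values. Another 4 SLC16 genes are set beside them. The cells were A549, a human lung adenocarcinoma line from a single tumour, grown in minimal essential medium whose serum was lowered before treatment. RNA came from 2 control samples, untreated and with no vehicle named in the labels, and from 2 samples exposed to embelin (15 µM for 4 h), a benzoquinone from the fruits of Embelia ribes. Each sample was labelled with Cy3 and hybridized to 1 whole-genome array. The comparison asks which transcripts differ with embelin while apoptosis is beginning. In such bulk RNA, fewer cells of a kind and less RNA per cell cannot be told apart. The labels do not say whether the 2 samples of a group came from separate cultures, so the spread between them may be technical.

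Monocarboxylate transporters span the plasma membrane and move small organic acids, most of them together with a proton. The classical members carry lactate, pyruvate and ketone bodies, so that they set how much lactic acid a glycolytic cell can release and how much a neighbouring cell can take up. SLC16A3 (MCT4) is the usual lactate exporter of strongly glycolytic cells, and SLC16A1 (MCT1) is the widespread form that works in both directions. Several members carry other substrates, among them thyroid hormone, aromatic amino acids and carnitine, and for some the substrate is still debated. MCT1 and MCT4 reach the cell surface with a chaperone such as basigin.

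The 4 arrays shared 1 slide and 1 scan, the control arrays being at positions 4 and 1 and the embelin arrays at positions 2 and 3. Between 50.3% and 66.7% of the 50238 probes were well above background, and control replicate 2 and embelin replicate 1 were the arrays with the lower shares. These are called below the arrays of the noisier background, and the others those of the cleaner background. The names stand for this share alone, as the labels give no such pairs. Signals are given as normalized log2 signal, the scanner's background-subtracted intensity after equalizing the 75th percentile of the arrays. They compare arrays for 1 probe and do not compare the levels of different genes. A probe was kept if both samples of the control group or both of the embelin group were well above background, which left 17649 genes, each represented by its brightest kept probe. Of the 9 transporters 7 were kept. The A549 label was checked with epithelial and A549 genes, and 8 of 8 (KRT7, KRT8, KRT18, KRT19, EPCAM, AKR1B10, AKR1C1 and ALDH1A1) were kept. None of 3 endothelial markers was kept, nor was the leukocyte marker PTPRC, while 1 of 4 fibroblast markers (COL1A1) and 2 of 4 leukocyte markers (CD14 and CD3E) were. COL1A1 was at 6.38 and 6.27 in the controls and 7.56 and 7.69 with embelin, a log2 difference of 1.30 that was not called (adjusted p = 0.0547 from limma). Its other kept probes differed by 1.84 and 1.78, with control replicate 2 not well above background at either of them. CD14 and CD3E had differences of -0.60 and 1.25 and were not called either (adjusted p = 0.232 and 0.290 from limma). The part of such transcripts in the values below was not tested.

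Each transporter is read by a probe of 60 bases, and the first 30 bases of the probes on which the largest differences rest are shown because SLC16A6 is read by a pair of probes with different sequences.
SLC16A6 probe A: gagatatgtagaaagactctttggttcaca
SLC16A6 probe B: actacattttaaagggaatgtgtatgtgaa
SLC16A3: gtcttggggacagctctttccacccctgga
SLC16A1: agctatttctgctcccctgttcaaagatgc
None of the SLC16 probes shares a run of 20 bases with any other probe on the array. SLC16A6 probe B is the brighter of the pair and stands for the gene. The RefSeq table also lists a pseudogene, SLC16A6P1, and whether its transcripts bind these probes was not tested.

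Of the transporters, SLC16A6 had by far the largest difference, with a 29.3-fold higher signal in embelin treated cells. The other 6 kept were all under 2-fold. SLC16A3 was at 1.97-fold and SLC16A1 at 1.66-fold of the control signal, neither of them called, and SLC16A4, SLC16A5, SLC16A9 and SLC16A13 had log2 differences between -0.28 and 0.12. SLC16A7 and SLC16A10 were too dim to enter the comparison of the groups. Of the 7 transporters kept, 1 (SLC16A6) was at least 2-fold higher, against 6.66% of all genes tested, and 0 were at least 2-fold lower, against 5.95% (12.6% in either direction). SLC16A6 was also the 1 transporter called by limma at an adjusted p under 0.05, against 1.25% of all genes called higher, 0.561% called lower and 1.81% in either direction. That call was lost in 9 of 16 alternatives, among them the replicate block, the array background block, slide position and each array left out. In 4 of the 7 the embelin arrays lay on 1 side of both control arrays, 3 higher and 1 lower, and such groups were seen in 51.8% of all genes. As the transporters were picked with this comparison known, the call is no test of SLC16A6, and nothing further is read from these counts.

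**Figure D1:**
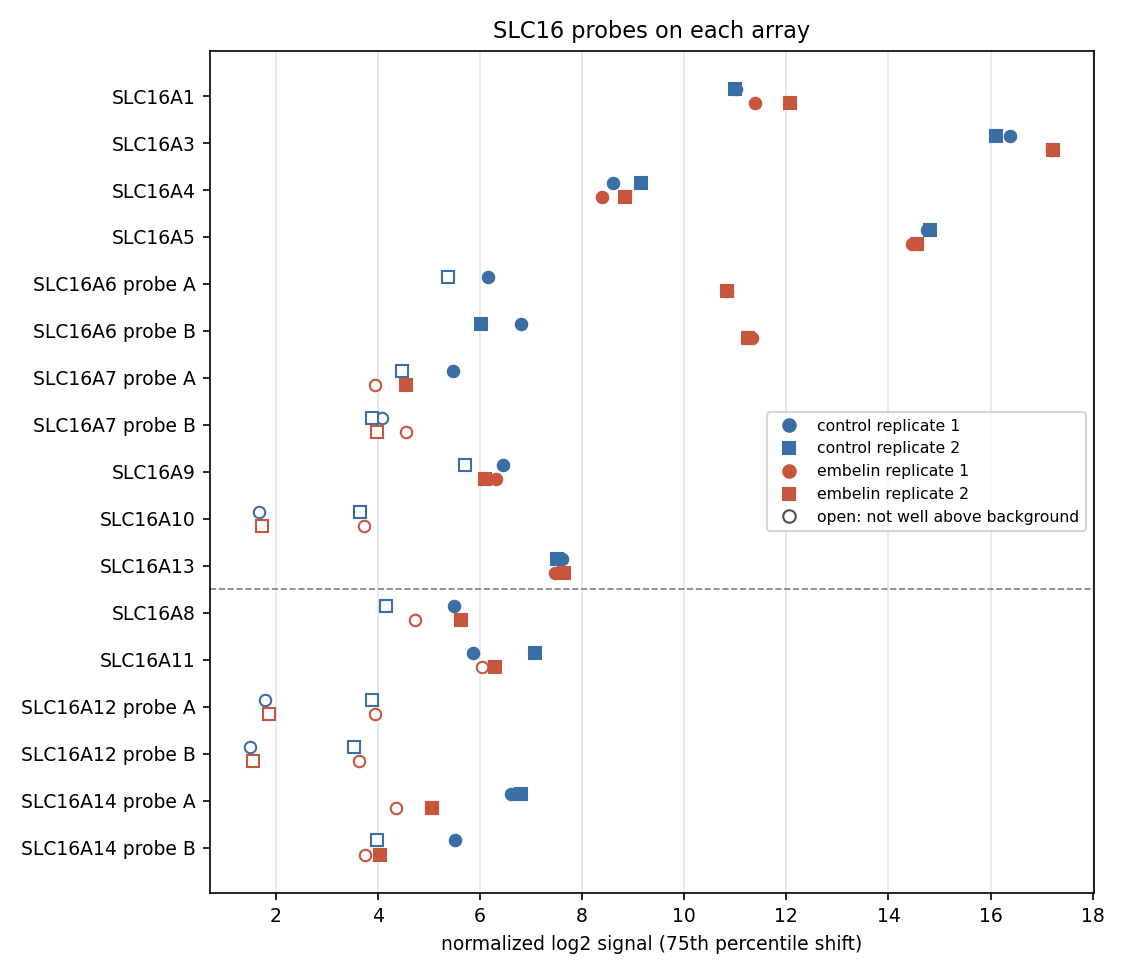
Normalized log2 signal (horizontal axis) of each SLC16 probe (rows) on each array, with the 9 chosen transporters above the dashed line and 4 other SLC16 genes below it. Blue marks are control and red marks embelin, circles replicate 1 and squares replicate 2, and open marks are signals not well above background; at both SLC16A6 probes the embelin marks lie to the right of the control marks, 1 of which is open at probe A.

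SLC16A6 encodes MCT7, a less studied member for which export of ketone bodies and transport of taurine have been described. At probe B its normalized log2 signal was 6.81 and 6.03 in the controls and 11.32 and 11.26 with embelin. Both embelin arrays were thus well above both controls, and the controls differed from each other more than the embelin samples did. The fitted log2 difference was 4.87 (standard error 0.31), a 29.3-fold higher signal with embelin. At probe A the signals were 6.17 and 5.37 in the controls, the second of them not well above background, and 10.83 and 10.84 with embelin. Between the control and embelin arrays of the cleaner background, on both of which it was well above background, probe A differed by 4.67 and probe B by 4.45. Among the 17649 genes tested SLC16A6 ranked 11 from the highest difference.

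The size of the SLC16A6 difference moved with the processing. With normexp background correction (offset 50) in place of the scanner's own, the log2 difference was 4.04, or 16.4-fold. With 1 array left out it lay between 4.48 and 5.26, and with 1 control and 1 embelin array of like background it was 5.30 in the pair with the noisier background and 4.45 in the other. SLC16A6 lies in the RefSeq table across ARSG, which encodes arylsulfatase G, and between AMZ2 and PRKAR1A. Their log2 differences were 0.43 (standard error 0.19) for ARSG, -0.0084 (standard error 0.17) for AMZ2 and 0.34 (standard error 0.19) for PRKAR1A. ARSG was dim, at 5.89 and 5.62 in the controls, the second of them not well above background, and 6.25 and 6.13 with embelin. None of these 3 neighbours, looked up after the SLC16A6 values were known, was called by limma (adjusted p = 0.319, 0.984 and 0.417).

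The 5 genes whose pattern over the 4 arrays came closest to SLC16A6 were CEMIP, ANGPTL4, DRAXIN, NDRG1 and ARID5A. Likeness was the Euclidean distance between log2 signals after each gene's mean was subtracted, over 17297 genes, and the distances ran from 0.46 for CEMIP to 0.73 for ARID5A. CEMIP, a gene for a hyaluronan-degrading protein, was at 7.20 and 6.84 in the controls and 11.50 and 11.64 with embelin. ANGPTL4 encodes a secreted inhibitor of lipoprotein lipase and went from 12.65 and 12.47 to 17.84 and 17.85. NDRG1, a stress-responsive gene, went from 12.57 and 12.77 to 17.42 and 17.30. DRAXIN was well above background in neither control, so that only a bound could be set, at least 9.16-fold higher with embelin. With 4 arrays in 2 groups, a small distance says little more than that the differences were of like size.

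SLC16A3 is a gene known to be induced by low oxygen, and MCT4 exports lactate. It was bright on every array, with normalized log2 signals of 16.37 and 16.10 in the controls and 17.20 and 17.23 with embelin. The groups did not overlap, and the embelin arrays lay closer together than the controls. The mean was 16.24 ± 0.19 (SD, n = 2) in the controls and 17.21 ± 0.02 (SD, n = 2) with embelin. The fitted log2 difference was 0.98 (standard error 0.18), or 1.97-fold. With 1 array left out the difference lay between 0.84 and 1.11, so that the 2-fold line was crossed without control replicate 1 (2.16-fold). Within the pairs of arrays with like background it was 1.10 and 0.86. In the RefSeq table SLC16A3 overlaps CSNK1D, which had a log2 difference of -0.33 (standard error 0.16) and was not called by limma (adjusted p = 0.369).

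SLC16A1 differed less evenly. Its normalized log2 signals were 11.01 and 10.99 in the controls and 11.38 and 12.08 with embelin. Both embelin arrays were above both controls, but the embelin samples were apart by more than the lower of them was from the controls. The log2 difference was 0.73 (standard error 0.29), or 1.66-fold. Without embelin replicate 2 it was 0.38 and without embelin replicate 1 it was 1.08 (2.11-fold), so that its size rests on which embelin array is taken.

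**Figure D2:**
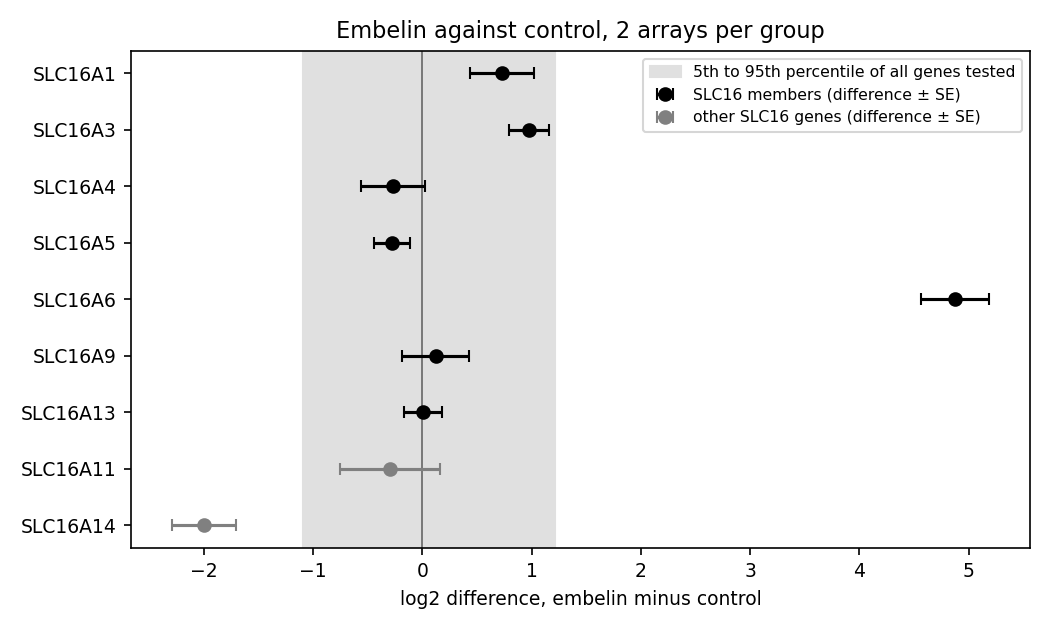
Log2 difference between embelin and control (horizontal axis, bars ± standard error, 2 arrays per group) for the SLC16 genes kept, the chosen transporters in black and the other SLC16 genes in grey. The shaded band runs from the 5th to the 95th percentile of all genes tested (-1.09 to 1.22), and SLC16A6 at 4.87 and SLC16A14 at -1.998 lie outside it.

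Promoter sequences of RefSeq (GRCh38.p14), windows of 300 bases that reach from upstream of a gene's start to a little past it, were matched by symbol for 5 of the 9 transporters and gave 11 windows, 5 of them from alternative starts of SLC16A3. The motif ACGTG, the core of the site that hypoxia-inducible factors and other E-box type factors bind, was searched on both strands, with a palindromic CACGTG counted on each strand. It was present in 21.4% of all 35116 windows of this length, in 3 of the 11 windows of the transporters and in 1 of the 5 of SLC16A3. The other windows with ACGTG belong to SLC16A9, where it lies in a CACGTG, and to SLC16A10. SLC16A9 had a log2 difference of 0.12, and SLC16A10 was not well above background on any array. The SLC16A3 window is shown because it holds ACGTG in 2 separate places, 68 and 55 bases before the start, written in capitals.
SLC16A3, chr17:82228792-82229091, plus strand: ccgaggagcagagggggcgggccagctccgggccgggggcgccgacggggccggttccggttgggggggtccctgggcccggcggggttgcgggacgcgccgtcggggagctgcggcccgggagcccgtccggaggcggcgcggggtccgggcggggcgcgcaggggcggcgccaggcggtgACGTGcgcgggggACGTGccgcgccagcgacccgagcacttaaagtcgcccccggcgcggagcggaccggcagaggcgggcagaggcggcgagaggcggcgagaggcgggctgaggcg
The related motif GCGTG was in 36.5% of all windows and in 5 of the 11, and it was absent from the window printed. The motifs TGACGTCA, TGATGNAA and TGACTCA, in 1.85%, 3.62% and 4.95% of all windows, were in none of the 11. A match is a description of the letters and no evidence of binding, and windows for SLC16A1, SLC16A5, SLC16A6 and SLC16A13 were not analysed here.

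Among the transporters with other or less settled substrates, SLC16A5 was the 1 that was lower in both embelin samples. SLC16A5 encodes MCT6, which has been described as a carrier of drugs. Its signals were 14.75 and 14.82 in the controls and 14.46 and 14.55 with embelin. The groups were apart, yet the log2 difference was only -0.28 (standard error 0.16) and was not called. SLC16A5 overlaps ARMC7 in the RefSeq table, and ARMC7 had a log2 difference of -1.31 (standard error 0.17) and was not called by limma (adjusted p = 0.0551). The genes on either side, KCTD2 and NT5C, had differences of -0.42 and 0.42 and were not called either (adjusted p = 0.422 and 0.264). SLC16A4, which encodes MCT5 and has no settled substrate, was at 8.60 and 9.15 in the controls and 8.38 and 8.84 with embelin. These groups overlapped, the log2 difference was -0.27 (standard error 0.29), and without control replicate 2 it was 0.0068.

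SLC16A13 encodes MCT13, a transporter of the liver and gut. It showed the smallest difference of the 7, with signals of 7.61 and 7.51 in the controls and 7.47 and 7.66 with embelin. The log2 difference was 0.0032 (standard error 0.17). The spread behind that standard error may be technical, so no limit is set on the size of the difference. SLC16A9 encodes MCT9, a carnitine transporter whose locus is linked to urate and carnitine levels in blood. It was at 6.45 and 5.72 in the controls, the second of them not well above background, and at 6.32 and 6.09 with embelin. The embelin samples lay between the controls, and the log2 difference of 0.12 (standard error 0.31) changed sign without control replicate 2 (-0.24).

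SLC16A7 and SLC16A10 were too dim to be kept. SLC16A7 encodes MCT2, the form with high affinity for pyruvate and lactate. At its probe A the signals were 5.46 and 4.48 in the controls and 3.95 and 4.56 with embelin, well above background on control replicate 1 and embelin replicate 2 only. Those were the arrays with the cleaner background, and between them the signal was lower with embelin by 0.90 on the log2 scale (a difference of -0.90). Its probe B was not well above background on any array. SLC16A10 encodes MCT10 (TAT1), a carrier of aromatic amino acids and thyroid hormone. Its probe was also not well above background on any array, with signals of 1.67 and 3.66 in the controls and 3.73 and 1.73 with embelin. The higher 2 of these values were on the arrays with fewer probes above background, 1 in each group.

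Another 4 SLC16 genes were looked at in the same fit. SLC16A14, an orphan member, was at 6.61 and 6.80 in the controls and at 4.36 and 5.06 with embelin, where only replicate 2 was well above background. Both embelin samples were thus below both controls. The log2 difference was -1.998 (standard error 0.29), which rests in part on the dim embelin value, and was not called after adjustment over all genes (adjusted p = 0.0652 from limma). Between the arrays of the cleaner background, where it was well above background on both, the difference was -1.56. With normexp background correction the fitted difference was -0.85, also with no call (adjusted p = 0.0736 from limma). A second SLC16A14 probe was too dim to be kept, with a difference of -0.85 between the groups. For SLC16A11 the groups overlapped, at 5.86 and 7.07 in the controls and 6.05 (not well above background) and 6.29 with embelin, and the difference of -0.29 (standard error 0.46) was not called by limma (adjusted p = 0.783). SLC16A8, the MCT3 of the retinal pigment epithelium, and SLC16A12, a creatine transporter, were not kept.

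**Figure D3:**
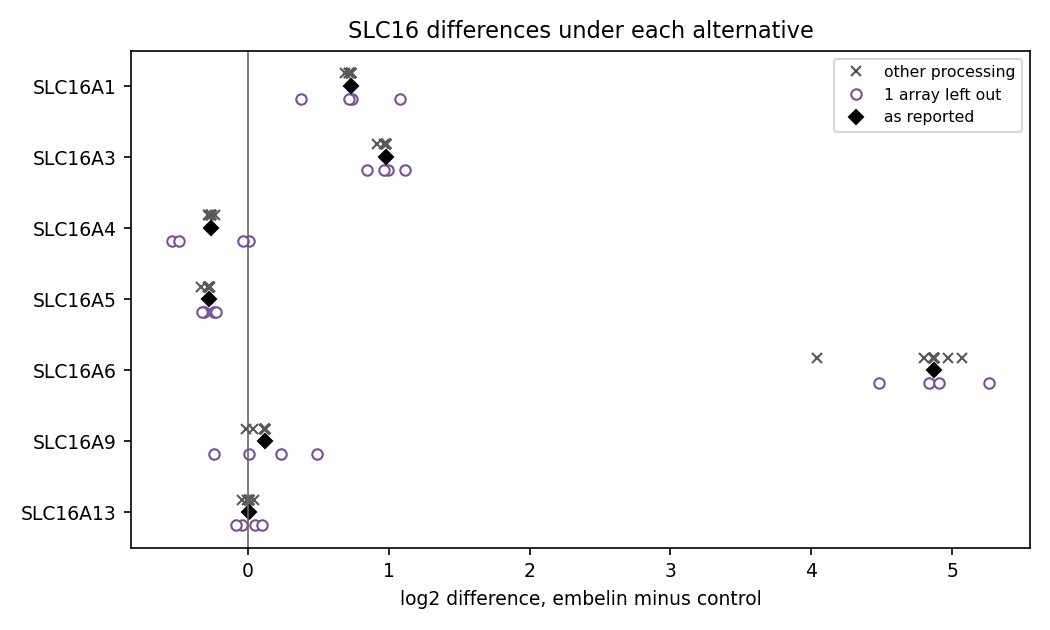
Log2 difference between embelin and control (horizontal axis) for the 7 transporters kept, as reported (black diamonds), under other processing (crosses) and with 1 array left out (open circles). SLC16A6 stays between 4.04 and 5.26, SLC16A1 and SLC16A3 stay above 0, and SLC16A4, SLC16A9 and SLC16A13 fall on both sides of 0.

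Genes that work with the transporters, or on what they carry, were taken from 6 lists of 43 genes in all, of which 35 were kept. After adjustment over all genes limma called 1 of the 35, PDK1, which was higher, against 1.81% of all genes called in either direction and 1.25% called higher. Without adjustment 10 of the 35 were at p under 0.05, against 19.5% of all genes. The median log2 difference of the 35 was -0.04, beside -0.06 over all genes tested. PDK1 encodes pyruvate dehydrogenase kinase 1, which switches off the entry of pyruvate into the mitochondrial citric acid cycle. It was at 8.54 and 8.21 in the controls and at 11.07 and 11.25 with embelin. It rose by 2.78 on the log2 scale (standard error 0.21, adjusted p = 0.0260 from limma), or 6.89-fold. Its other kept probe was not well above background in control replicate 2, and differed by 1.68 between control replicate 1 and embelin replicate 2. Over 15 alternatives its difference lay between 2.57 and 2.95 and its adjusted p between 0.00183 and 0.332, with a call in 5 of them and none when any 1 array was left out.

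The chaperones that carry the transporters to the membrane showed no called difference. BSG (basigin) was at 13.07 and 12.98 in the controls and 12.82 and 13.31 with embelin, a difference of 0.04 (standard error 0.23, adjusted p = 0.943 from limma). NPTN (neuroplastin) was at -0.32 (standard error 0.31, adjusted p = 0.630), and EMB (embigin) was not analysed here. Among the other carriers of monocarboxylates, MPC1 and MPC2 form the mitochondrial pyruvate carrier and had differences of 0.03 and -0.09. The other kept probe of MPC2, which is dimmer, had a difference of -0.38. The sodium-coupled SLC5A12 had a difference of -0.45 (adjusted p = 0.352 from limma). It was dim, at 5.80 and 6.04 in the controls and 5.31 (not well above background) and 5.64 with embelin. SLC5A8 was not kept. None of the 3 carriers kept was called.

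All 18 enzymes and receptors of lactate and pyruvate were kept, 7 of them higher and 11 lower with embelin, and PDK1 was the 1 called. LDHA, the lactate dehydrogenase subunit that favours lactate production, was at 16.44 and 16.55 in the controls and 16.88 and 16.90 with embelin. Its difference was 0.39 (standard error 0.16, adjusted p = 0.297 from limma), and 0.16 and 0.56 at its other kept probes. LDHB had a difference of -0.21 (standard error 0.16). The pyruvate dehydrogenase kinases did not run one way. PDK3 had a difference of 0.75 (standard error 0.19) and PDK2 one of -0.82 (standard error 0.17). For PDK4 it was -1.26 (standard error 0.23) with an adjusted p of 0.0899 from limma. HCAR1, the lactate receptor, was at 4.70 and 9.39 in the controls and at 3.99 (not well above background) and 4.64 with embelin. Its difference of -2.74 (standard error 1.65, adjusted p = 0.441 from limma) rests on the single bright array, control replicate 2. The other HCAR1 probes, which were not kept, read 3.59 and 3.71 on that array, neither well above background.

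**Figure D4:**
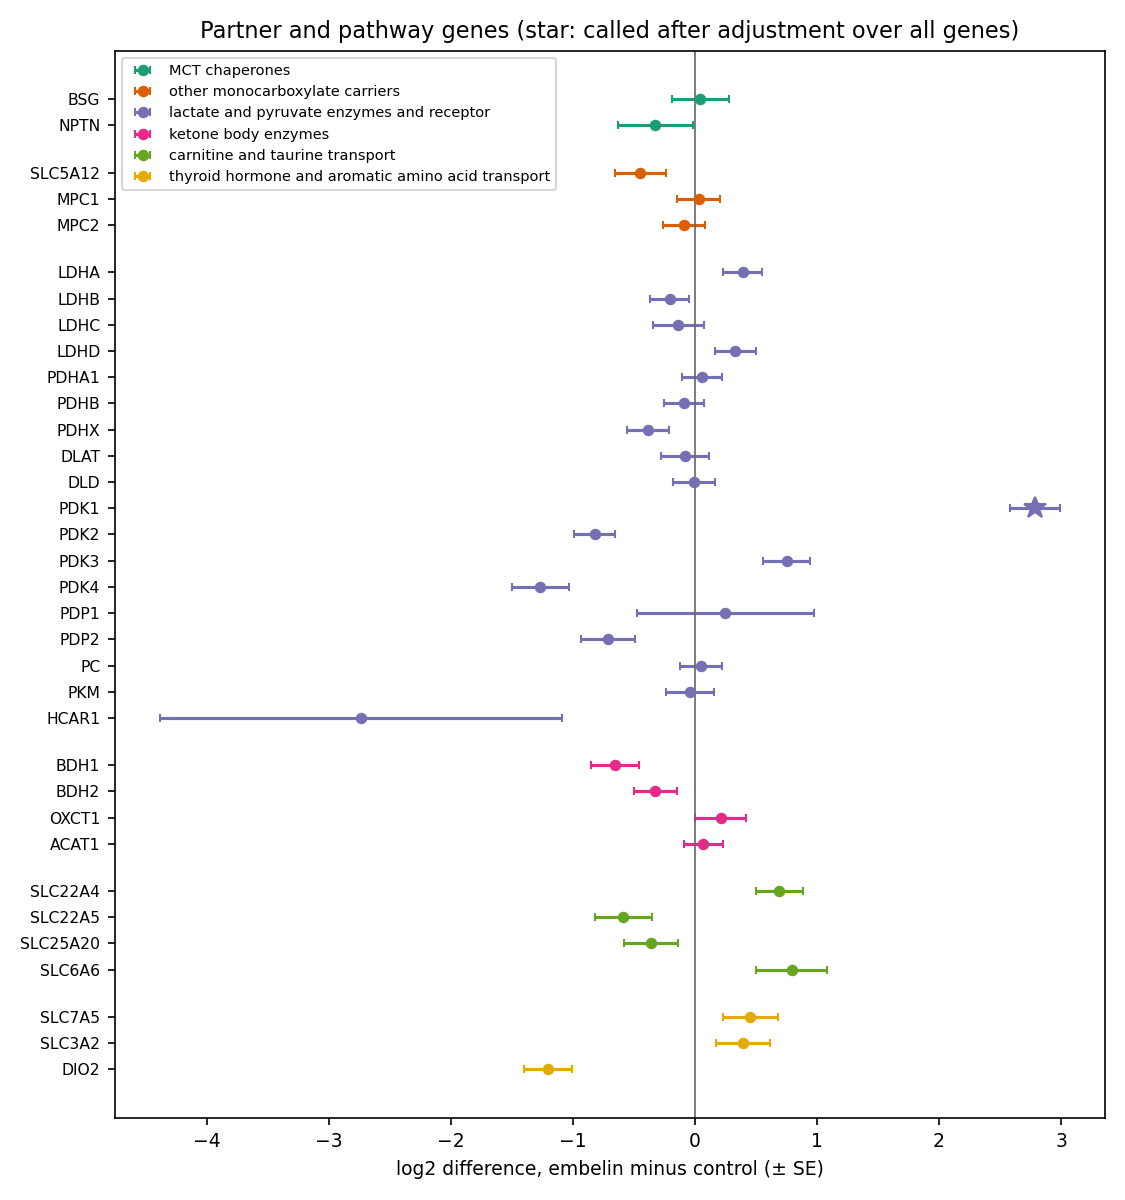
Log2 difference between embelin and control (horizontal axis, bars ± standard error, 2 arrays per group) for 34 of the 35 kept genes of the 6 partner and pathway lists, coloured by list. The star marks PDK1 at 2.78, the 1 gene called after adjustment over all genes, and the wide bar at -2.74 is HCAR1.

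For the substrates outside lactate and pyruvate, none of the 12 genes kept was called by limma after adjustment. Of the ketone body enzymes, BDH1 had a difference of -0.66 (adjusted p = 0.192). Of the carnitine and taurine carriers, the taurine transporter SLC6A6 had a difference of 0.79 (adjusted p = 0.253) and SLC22A4 one of 0.69 (adjusted p = 0.170). At the other kept probes of SLC6A6, which are dimmer, the differences were 1.22, 1.09 and 1.60, each more than 2-fold. Among the genes of thyroid hormone and aromatic amino acid transport, DIO2, the deiodinase that activates thyroid hormone, was at 11.79 and 11.93 in the controls and 10.49 and 10.82 with embelin. Its difference was -1.20 (standard error 0.20, adjusted p = 0.0781 from limma), and -0.61 at its other kept probe. SLC7A5, the large neutral amino acid transporter, had a difference of 0.45 (adjusted p = 0.369 from limma), and 0.74 at its other kept probe.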

How the data were processed

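RNA of 2 untreated and 2 embelin treated A549 samples was measured on 4 single-colour Agilent arrays. The authors deposited spot intensities from Feature Extraction (version 10.7.3.1 per the file headers), background subtracted, detrended and with surrogate values for dim spots, but not scaled between arrays. They also deposited a table of intensities per probe. According to the methods, the authors shifted arrays to a common 75th percentile and used Student's t-test with a threshold of 2-fold.

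Here intensities were scaled to equal 75th percentiles (675), floored at 1 and logged. Outlier spots were dropped, 47 to 743 per array, and none of the dropped spots belonged to an SLC16 probe. Spots of a probe were averaged. Current symbols came from RefSeq accessions for 28595 probes and from a probe of the same name for 2341, while 19302 kept their deposited name. limma 3.58.1 in R 4.3.3 (prior of 2.16 degrees of freedom) compared the groups over 17649 genes with Benjamini-Hochberg adjustment. The test was also tried on simulated data. With 2 arrays a group, the smallest p of an exact permutation test (two-sided) is 0.333, and the few arrays limit the precision (median pooled SD 0.21 in log2).

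The transporters, the lists and the rule for named genes were chosen with earlier results of these data known. The rule named the SLC16 genes, every list gene called, otherwise the 2 of each list with the largest change, and the 5 genes nearest in pattern to SLC16A6. BSG, NPTN, MPC1, MPC2, LDHA, LDHB, PDK2, PDK3 and the neighbours of SLC16A3, SLC16A5 and SLC16A6 were named for their function or place. The alternatives tried were normexp correction (offset 50), quantile normalization, the deposited probe table, the methods' t-test, no filter and a filter on all 4 arrays, a trended and robust eBayes, blocks for replicate number and array background, slide position, the mean over probes, each probe alone, and leaving out each array. Values of 2 genes of these lists are not reported here.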

Additional observations from a re-analysis of the deposited data

How the results depend on the processing

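SLC16A6 stayed higher with embelin under all 16 alternatives run for it. It was called by limma in 7 of them and not in the other 9, which were no filter on dim probes, the methods' t-test, the replicate block, the array background block, slide position as a covariate and each of the 4 arrays left out. SLC16A3 was called with trend and robust. The number of transporters at least 2-fold higher was 1 in every other setting and 1 to 2 with 1 array left out, and the number at least 2-fold lower was 0 throughout. SLC16A9 was at -0.012 with quantile normalization and -0.24 to 0.49 with 1 array left out. SLC16A13 was at -0.045 with quantile normalization, -0.0059 with the deposited table and -0.089 to 0.095 with 1 array left out (-0.043 without control replicate 2). SLC16A4 ranged from -0.54 to 0.0068 and SLC16A11 from -0.90 to 0.31 with 1 array left out. Over all genes, the calls higher and lower were 221 and 99 as reported, 422 and 277 with normexp, 144 and 36 with quantile normalization, 126 and 33 with the deposited table, 419 and 345 with the filter on all 4 arrays, 566 and 495 with trend and robust, and 162 and 56 with the mean over probes. They were 0 and 0 with no filter, the methods' t-test, the replicate block, the array background block, slide position, and any 1 array left out. At an unadjusted p under 0.05, these settings had from 973 to 1673 genes higher and from 993 to 2070 lower. Of the partner and pathway genes, 1 was called as reported, 2 with normexp, 3 with the filter on all 4 arrays, 3 with trend and robust, and 0 with the mean over probes and in the settings that called 0 genes. The cause of these changes was not tested. The same replicate numbers were correlated at 0.17 in their deviations from the group means over 17298 genes, and 2 pairs do not show that the numbers pair the samples. For the crossed numbers, which are the pairs of like background, the correlation is -0.17. With 2 arrays per group it is always the same value with its sign reversed, so it is no second measurement. Those pairs are not shown to be matched either. Dim probes limit SLC16A7, SLC16A10, SLC16A8 and SLC16A12.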
